A study of Homo sapiens with 4 samples.

Results

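The transcripts of 10 glycolytic enzyme genes, *HK2*, *GPI*, *PFKP*, *ALDOA*, *TPI1*, *GAPDH*, *PGK1*, *ENO1*, *PKM* and *LDHA*, were followed in RNA sequencing of cells labelled HepG2. These cells had been exposed to Sorafenib. The genes were taken by symbol from a table of 28278 genes, and all 10 passed the filter on low counts that left 15150 genes for testing. HepG2 is a human line derived from a liver tumour, and Sorafenib is a multikinase inhibitor given for advanced hepatocellular carcinoma. Control cells had been infected with lentiviruses that carried Cas9 and a control sgRNA, and the other cells, called sgUSP22, with lentiviruses that carried Cas9 and an sgRNA against *USP22*, a deubiquitinase gene. Both groups then received Sorafenib for 24 h, at 10 µM in the methods, so that no library came from cells without the drug. Each group had 2 libraries of polyadenylated RNA, from infected populations and not from single clones. As nothing states that the 2 libraries of a group came from separate cultures, the p-values measure the spread between libraries, which may be technical.

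The 4 libraries held between 62030307 and 64728272 counts. Control libraries held 16450 and 16537 counts of *USP22* itself, and those labelled sgUSP22 held 20279 and 20368, a log2 fold change of 0.22 ± 0.034 (SE; edgeR adjusted p = 0.000394). The transcript of the targeted gene was thus higher and not lower under the sgUSP22 label, and every direction given here rests on that label. A count per gene shows neither edits of the sequence nor the level of the protein, so it does not check the knockout. A list of 24 hepatocyte markers had 13 members at 0 counts in every library, including *ALB*, *APOA1* and *TTR*, whereas *CPS1* had 60849 to 87325 counts. Thus most defining transcripts of the labelled cell type were absent. The summed level of the hepatocyte list was 979 to 1020 CPM (counts per 1e+06 of the scaled library) in the control libraries and 1302 to 1332 CPM under the sgUSP22 label, nearly all from *CPS1*, and its part in the results was not tested. Of the other 2 markers that were tested, *ASGR1* fell (197 and 188 counts against 125 and 106, log2 fold change -0.82, adjusted p = 0.00649) and *AMBP* had 7 to 15 counts and did not pass. A list of 6 mesenchymal markers summed to 1639 to 1643 CPM in the controls and 1443 to 1468 CPM under the sgUSP22 label. Its 5 tested genes shared no direction: at an adjusted p below 0.05, 1 was higher and 2 lower, with a median log2 fold change of 0.11. Of all tested genes, 26.8% were higher and 25.8% lower. The 5 epithelial markers summed to 1756 to 1795 CPM and 1315 to 1373 CPM, with 2 of them at 0 in every library.

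Glycolysis splits glucose into pyruvate in the cytosol and yields ATP and NADH, and lactate dehydrogenase then turns pyruvate into lactate while it restores NAD+. Most steps are served by several isozymes, of which tumour cells commonly use the hexokinase encoded by *HK2*, the platelet-type phosphofructokinase encoded by *PFKP*, the M forms of pyruvate kinase encoded by *PKM* and the lactate dehydrogenase subunit encoded by *LDHA*, while adult hepatocytes use the liver form of pyruvate kinase. *GAPDH* encodes glyceraldehyde-3-phosphate dehydrogenase and is often taken as a gene of steady level, as it was for the RT-qPCR of this study. Many glycolytic genes are targets of hypoxia-inducible factors, which bind a core of ACGTG or GCGTG. Many are also targets of MYC and related proteins, whose E-box CACGTG holds ACGTG on each strand. Only the ACGTG form was counted, and it alone is called the core below.

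The promoters of 4 of these genes are printed to set that core beside the results below. *LDHA*, *PGK1* and *HK2*, which were not lower past the test, hold it at least 2 times, and *ENO1*, which was lower, not at all. The GCGTG form was not counted, and at least the windows of *ENO1*, *PGK1* and *HK2* hold it. Over all 10 windows the core did not divide the genes by their fold changes. *GAPDH*, which was lower, holds it on both strands of the same CACGTG, whereas *PGK1* and *HK2* hold it at separate sites. *GPI* and *ALDOA*, also lower, hold it 1 time each. The windows of *GAPDH*, *GPI* and *ALDOA* are, however, not those before the canonical start, as given below. Among only the windows where the start sites matched, *LDHA*, *PGK1* and *HK2* hold the core, and *TPI1*, *ENO1* and *PKM*, which were lower, do not. This subset leaves out *GAPDH*, *GPI* and *ALDOA*, which were lower and hold the core, and *PFKP*, lower and without it. It was set apart after the fold changes had been seen. Any link between the core and the changes was not tested. Each stretch is the 250 bases before the RefSeq start site on GRCh38.p14, read 5′ to 3′ on the strand of the gene, with every ACGTG or its reverse complement CACGT in capitals. The stretches are chr11:18394313-18394562 on the + strand, chrX:78103998-78104247 on the + strand, chr2:74833877-74834126 on the + strand and chr1:8878687-8878936 on the - strand.
LDHA: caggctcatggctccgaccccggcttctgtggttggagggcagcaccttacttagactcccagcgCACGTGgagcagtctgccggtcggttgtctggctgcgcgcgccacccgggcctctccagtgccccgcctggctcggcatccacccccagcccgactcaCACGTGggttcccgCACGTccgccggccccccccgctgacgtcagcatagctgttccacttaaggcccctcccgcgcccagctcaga
PGK1: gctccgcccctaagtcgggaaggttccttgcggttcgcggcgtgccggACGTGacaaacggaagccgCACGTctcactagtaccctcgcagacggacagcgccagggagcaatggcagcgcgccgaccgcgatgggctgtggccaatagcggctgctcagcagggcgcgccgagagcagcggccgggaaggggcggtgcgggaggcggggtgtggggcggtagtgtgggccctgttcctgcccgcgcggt
HK2: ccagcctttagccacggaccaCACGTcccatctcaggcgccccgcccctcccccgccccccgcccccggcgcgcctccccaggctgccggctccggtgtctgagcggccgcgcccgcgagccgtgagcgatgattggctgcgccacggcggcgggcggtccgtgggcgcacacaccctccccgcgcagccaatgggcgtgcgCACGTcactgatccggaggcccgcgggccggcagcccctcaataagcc
ENO1: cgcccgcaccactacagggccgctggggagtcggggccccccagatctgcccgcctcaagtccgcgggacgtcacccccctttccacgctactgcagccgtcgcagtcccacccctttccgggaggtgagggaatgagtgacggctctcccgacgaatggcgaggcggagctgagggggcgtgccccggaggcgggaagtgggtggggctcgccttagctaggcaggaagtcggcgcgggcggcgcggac

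Counted on both strands, so that a CACGTG counts on each, the core was found 5 times before *LDHA*, 2 times each before *PGK1*, *HK2* and *GAPDH*, 1 time each before *GPI* and *ALDOA*, and not before *PFKP*, *TPI1*, *ENO1* or *PKM*. Thus 6 of the 10 windows held it (60%), against 18.5% of 35116 promoter windows of the same length. The RefSeq start site equalled that of the canonical GENCODE transcript for 6 of the 10 genes, and lay 204 bases from it for *GPI*, 422 for *PFKP*, 747 for *GAPDH* and 1481 for *ALDOA*, so that for these 4 the window is not the one before the canonical start. The motif was chosen after the fold changes had been seen. A match describes the letters and says nothing of binding in these cells.

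The question put to the data was whether the enzymes' transcripts differed between the 2 groups. Most were modestly lower under the sgUSP22 label: *GPI*, *PKM*, *ENO1*, *PFKP*, *TPI1*, *ALDOA* and *GAPDH* fell by 14.8% to 27.3%, *HK2* rose by 17.4%, and *PGK1* and *LDHA* did not pass the test. That is 7 of 10 lower and 1 of 10 higher at an adjusted p below 0.05 (quasi-likelihood F test of edgeR, adjusted by Benjamini-Hochberg over all tested genes), where 25.8% of all tested genes were lower and 26.8% higher. None of the 10 reached a fold of 1.5 together with that p, which 7.25% of tested genes did in the lower and 8.88% in the higher direction. The median log2 fold change was -0.30 over the 10 genes and 0.00091 over all tested genes. Among the 1489 genes at least as abundant as *HK2*, the least abundant of the 10, 47.1% were lower and 30.2% higher, with a median of -0.066, so the background of lower calls is itself larger at these levels. The calls for *GAPDH* and *ALDOA* were lost after a correction for GC content and length and when the libraries were scaled to reference genes. *LDHA* changed direction when scaled to *GAPDH* or to reference genes, and *PGK1* once trends with GC content and length were removed, as given further on. In bulk RNA, less RNA per cell and a different mixture of cells cannot be told apart.

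**Figure D1:**
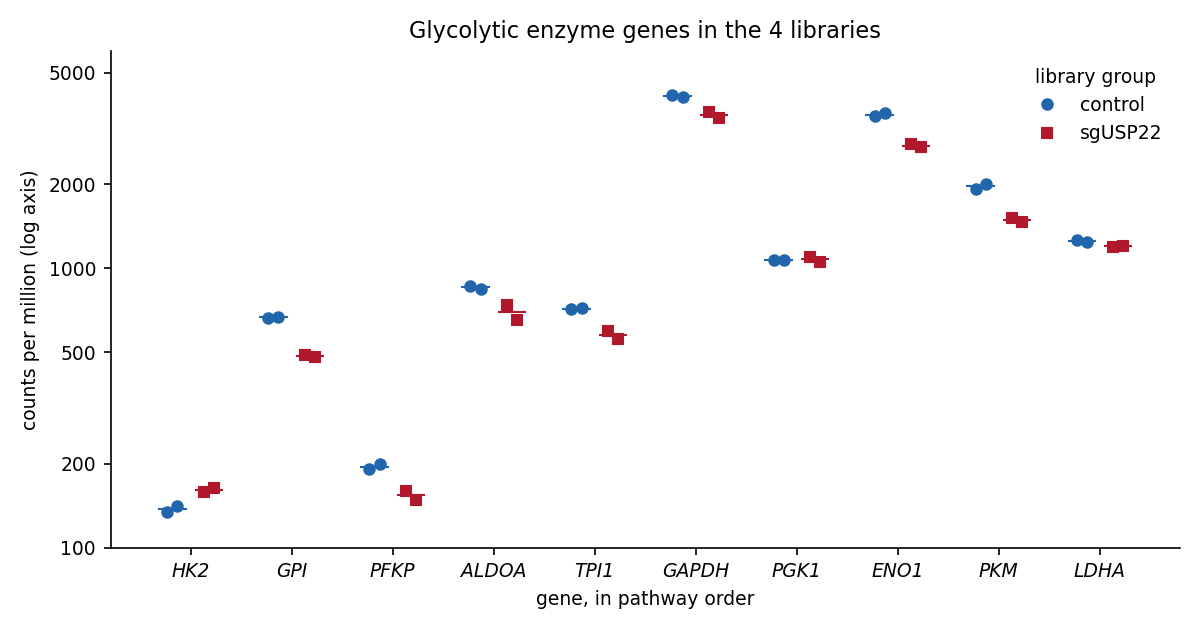
CPM of the 10 genes on a log axis, in pathway order, for the 2 control libraries (circles) and the 2 sgUSP22 libraries (squares), with horizontal lines at the group means. The groups lie apart for 9 genes, with only *HK2* higher under the sgUSP22 label, and overlap for *PGK1*. Of all tested genes, 37.6% lay apart in the lower direction and 38.3% in the higher.

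The upper part of the pathway spends ATP on the hexoses. *HK2* (chr2:74834127-74893359 on hg38) encodes the hexokinase that traps glucose as glucose-6-phosphate, often bound to mitochondria. Its level, as CPM scaled by TMM, was 134 and 141 in the control libraries and 158 and 164 under the sgUSP22 label, a log2 fold change of 0.23 ± 0.041 (SE; adjusted p = 0.00100). Both sgUSP22 libraries stood above both controls, and *HK2* was the only one of the 10 genes whose 2 groups lay apart in the upward direction, as 38.3% of tested genes did. *GPI* (chr19:34359480-34402413) encodes the isomerase that makes fructose-6-phosphate. It stood at 664 and 669.7 CPM against 489.7 and 480.3 CPM, a log2 fold change of -0.46 ± 0.031 (adjusted p = 2.04e-06), the farthest from 0 among the 10. The gap of *GPI* between the groups exceeded the gap within either group many times over.

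*PFKP* (chr10:3066333-3137718) encodes a subunit of phosphofructokinase, the main control point of the pathway. It had 191 and 199 CPM in the control libraries and 160.0 and 149 CPM under the sgUSP22 label, a log2 fold change of -0.34 ± 0.045 (adjusted p = 0.000158). *ALDOA* (chr16:30064164-30070457) encodes the aldolase that cleaves fructose-1,6-bisphosphate. It had 864 and 844 CPM against 741 and 655 CPM, a log2 fold change of -0.29 ± 0.050 (adjusted p = 0.000829). Relative to its level, *ALDOA* differed more between the 2 sgUSP22 libraries than any other of the 10 genes, yet both stayed below the controls. *TPI1* (chr12:6867119-6870948), whose product interconverts the triose phosphates, had 713 and 720 CPM against 596 and 559.8 CPM, a log2 fold change of -0.31 ± 0.036 (adjusted p = 6.71e-05).

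*GAPDH* (chr12:6534512-6538374) was the most abundant of the 10 and stood at rank 2 of the table by TPM, a level per transcript length. The controls gave 254936 and 256459 counts and the libraries labelled sgUSP22 237713 and 222545, or 4180.4 and 4110.3 CPM against 3617 and 3447 CPM. Both sgUSP22 libraries were below both controls. The fall was 14.8%, a log2 fold change of -0.23 ± 0.029 (95% confidence interval -0.29 to -0.17; adjusted p = 9.64e-05). As a share of all counts, *GAPDH* took 0.411% (Wilson 95% interval 0.409 to 0.413) and 0.403% (0.402 to 0.405) of the control libraries and 0.367% (0.366 to 0.369) and 0.352% (0.351 to 0.353) of the others. These intervals cover counting error only and did not overlap between the groups.

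The lower part of the pathway regains ATP. *PGK1* (chrX:77910739-78129295) encodes phosphoglycerate kinase, the step after GAPDH that makes ATP. It had 1069.5 and 1068 CPM in the control libraries, and 1102 and 1051 CPM under the sgUSP22 label, one above and the other below the controls. Its log2 fold change was 0.0098 ± 0.032 (95% confidence interval -0.062 to 0.081; adjusted p = 0.823), so that changes beyond that interval were not supported in either direction. *ENO1* (chr1:8861000-8879190, - strand), whose product enolase makes phosphoenolpyruvate, had 3497 and 3578 CPM against 2785 and 2705 CPM, a log2 fold change of -0.37 ± 0.027 (adjusted p = 3.12e-06). *PKM* (chr15:72199029-72231819, - strand), for the pyruvate kinase that makes ATP again, had 1926 and 2002 CPM against 1513 and 1466 CPM, a log2 fold change of -0.40 ± 0.031 (adjusted p = 4.61e-06). For both genes the lower control library stood clearly above the higher sgUSP22 library. The count is per gene, so the M1 and M2 forms of *PKM* were not separated.

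*LDHA* (chr11:18394560-18408425) encodes the subunit of lactate dehydrogenase that favours lactate formation. Its raw counts were almost the same in all libraries, 77190 and 77187 against 78542 and 77886. Scaled, these became 1266 and 1237 CPM against 1195 and 1206 CPM, a log2 fold change of -0.060 ± 0.029 (95% confidence interval -0.12 to 0.0043; adjusted p = 0.107). The 2 groups of *LDHA* did not overlap, but the difference did not pass the test in edgeR, whereas DESeq2 gave an adjusted p of 0.0462. With *LDHA*, the groups lay apart in the lower direction for 8 of the 10 genes, against 37.6% of all tested genes.

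Together the 10 genes held 1.43% of the counts in each control library, and 1.25% and 1.21% in the sgUSP22 libraries. Levels between the genes can be compared only per length. In mean TPM over the control libraries *GAPDH* (7436) was followed by *ENO1* (4579), *PKM* (1964), *LDHA* (1287), *TPI1* (1222), *ALDOA* (1200.3), *PGK1* (512), *GPI* (373), *PFKP* (171) and *HK2* (56.3). *TPI1* and *ALDOA* were neighbours whose gap was about the size of their spread (SD 7.99 and 20.1 TPM, n = 2), while the other neighbours were farther apart than theirs. On the TPM scale *LDHA* was 1302 and 1272 in the control libraries and 1348 and 1386 under the sgUSP22 label, so that its direction differed from that in CPM. *GAPDH* went from 7436 ± 90.3 to 7011 ± 148 TPM (SD, n = 2), a smaller fall than in CPM, and *PGK1* from 512 ± 0.45 to 571 ± 11.6 TPM.

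The differences varied with the base composition of the transcripts. The 3 genes that were not lower past the test, *LDHA*, *PGK1* and *HK2*, had the lowest GC contents of the 10 (41.8%, 42.8% and 50.5% of the canonical transcript), and the other 7 ranged from 53.1% in *GPI* to 60.5% in *ALDOA*. Over all tested genes with a GENCODE match, the median log2 fold change went from 0.14 for the 5237 genes under 45% GC to -0.14 for the 4552 at 55% or more, and the share that was lower past the test from 16.2% to 36.4%. Median transcript length fell across the same bins, from 4004 to 2410 bases, and the trends with GC content and with length were not separated. The bins were chosen after the values had been seen. When each library's trend with GC content and transcript length was taken out, *GPI* (-0.41), *PKM* (-0.26), *ENO1* (-0.23), *PFKP* (-0.21) and *TPI1* (-0.15) were still lower past the test and *HK2* (0.20) still higher. *GAPDH* was then at -0.049 (adjusted p = 0.102) and *ALDOA* at -0.094 (adjusted p = 0.101), while *PGK1* (-0.11, adjusted p = 0.0242) and *LDHA* (-0.13, adjusted p = 0.00200) passed as lower. Therefore the calls for *GAPDH*, *ALDOA*, *PGK1* and *LDHA* turn on this choice, and the other 6 do not.

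**Figure D2:**
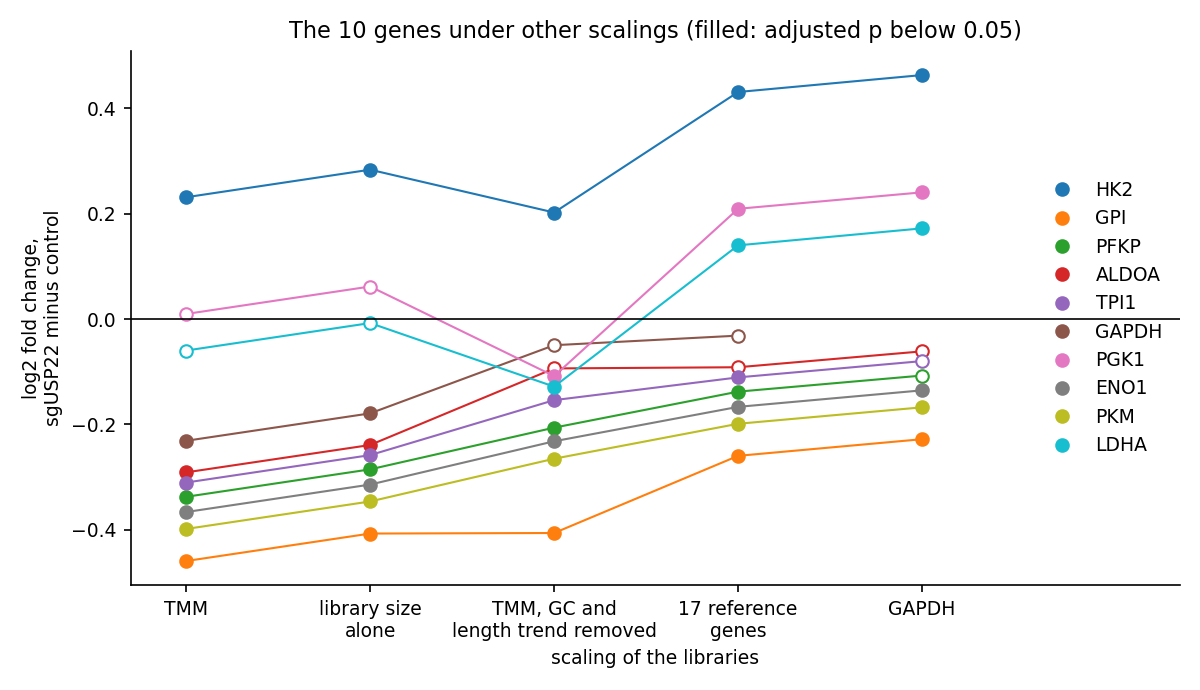
Log2 fold change of the 10 genes (sgUSP22 minus control, vertical axis) under 5 scalings of the libraries, with filled points at an adjusted p below 0.05 and open points otherwise. *HK2* lies above 0 and *GPI*, *PKM* and *ENO1* below it with filled points throughout, and *GAPDH* has no value when it is itself the scale.

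Isozymes of the 10 were examined next, together with other glycolytic enzymes such as phosphoglycerate mutase, to see whether they moved with the 10 or against them. The counts that follow are therefore not of isozymes alone. Of 25 such genes, 16 were tested, and 8 were lower and 1 higher at an adjusted p below 0.05 (median log2 fold change -0.24), beside 25.8% lower and 26.8% higher among all tested genes. The largest change among them by fold was in phosphoglycerate mutase, the step between *PGK1* and *ENO1*. For its main gene *PGAM1* the controls gave 16551 and 17173 counts and the libraries labelled sgUSP22 9875 and 9094, a log2 fold change of -0.91 ± 0.041 (adjusted p = 1.73e-07). *PGAM4*, a near-identical retrogene copy of *PGAM1* with 110 to 282 counts, had -0.93 ± 0.23 (adjusted p = 0.00655), and its counts are uncertain because reads can be shared between the copies. *PGAM1* lies on the long arm of chromosome 10, where the 74 other genes within 5 Mb had a median log2 fold change of -0.48. Genes near the 10 enzymes had medians between -0.11 (*GPI*, 80 genes) and 0.24 (*PGK1*, 14 genes), and those near *GAPDH* -0.030 (71 genes). The genes outside the 10 for which neighbours were counted were chosen after the values had been seen, and the part of the neighbourhood in the result was not tested.

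**Figure D3:**
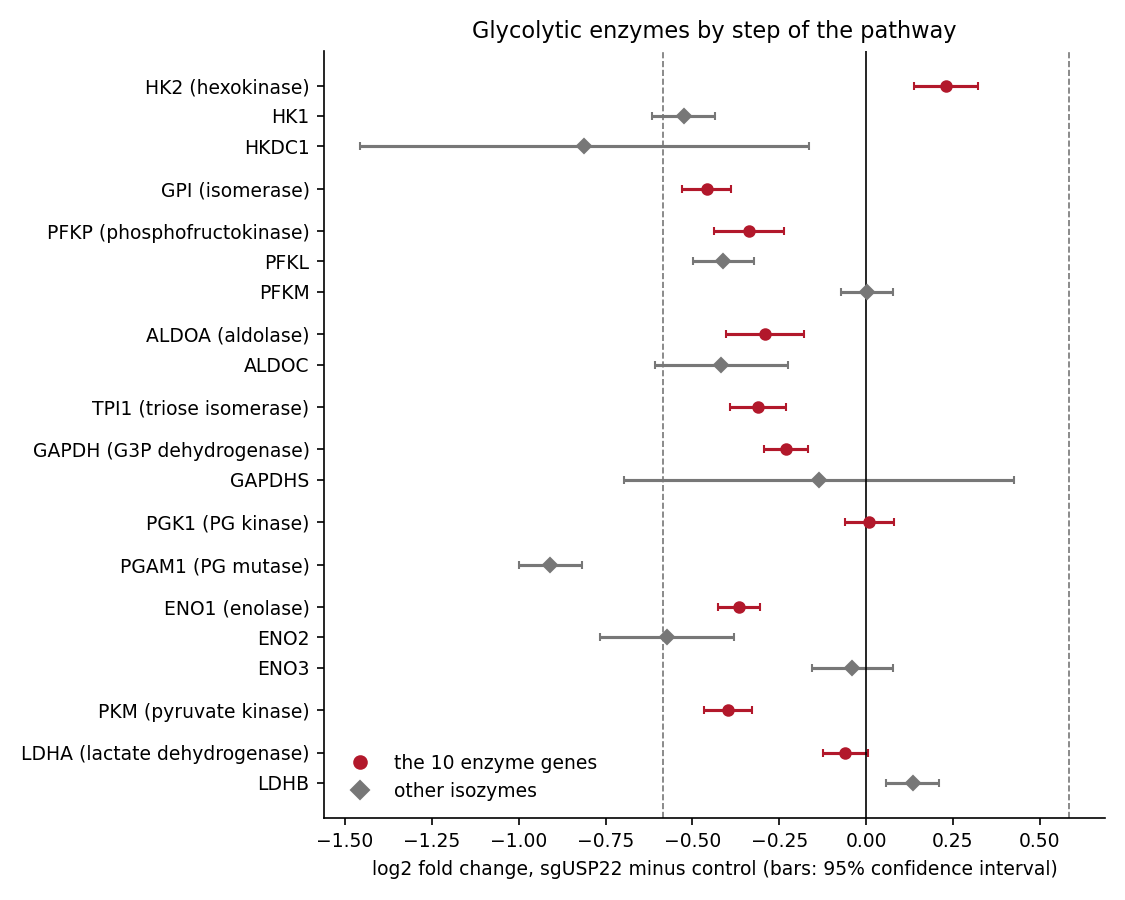
Log2 fold change (sgUSP22 minus control) with 95% confidence interval of the 10 genes (circles) and of tested isozymes of the same steps and *PGAM1* (diamonds), ordered by step, with dashed lines at a fold of 1.5. *PGAM1* lies at -0.91, *HK1* at -0.53 and *HK2* at 0.23, on opposite sides of 0.

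Hexokinase was the step at which 2 well-expressed isozymes moved in opposite directions. *HK1* had 143 and 149 CPM in the control libraries and 103 and 99.6 CPM under the sgUSP22 label, a log2 fold change of -0.53 ± 0.040 (adjusted p = 4.45e-06), against 0.23 for *HK2*. In TPM, *HK2* made up 37.2% and 37.5% of hexokinase transcripts in the control libraries and 49.4% and 51.1% in the others, while the total of the step stayed between 144 and 154 TPM in all 4 libraries. The shift in share was larger than the SD within either group (0.23 and 1.27 percentage points, n = 2), and with 2 libraries a group it has no test of its own. *HK1* and its neighbour *HKDC1* (-0.81 ± 0.29; adjusted p = 0.0382; 51 to 90 counts) also lie on the long arm of chromosome 10, where other genes within 5 Mb of *HK1* had a median of -0.44 (54 genes). *HK3* had 0 counts in each of the 4 libraries.

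The other steps were led by the same isozymes in both groups. *PFKL* fell like *PFKP* (-0.41 ± 0.039; adjusted p = 1.82e-05), while *PFKM* stood at 0.0035 ± 0.034 (adjusted p = 0.942), so that the *PFKM* share of phosphofructokinase TPM went from 38.1% ± 0.77 to 44.3% ± 1.07 (SD, n = 2). *ALDOC*, the brain-type aldolase, fell (-0.42 ± 0.086; adjusted p = 0.00237) but made up only 2.33% of aldolase TPM in the controls and 2.14% under the sgUSP22 label. Neuronal enolase *ENO2* fell (-0.57 ± 0.086; adjusted p = 0.000342), and muscle enolase *ENO3* had -0.039 ± 0.052 (adjusted p = 0.561), with *ENO1* at 97.5% of enolase TPM in the controls and 97.0% under the sgUSP22 label. *LDHB*, whose subunit favours the return of lactate to pyruvate, rose by 9.72% (0.13 ± 0.034; adjusted p = 0.00825), and its share of lactate dehydrogenase TPM went from 62.5% ± 0.66 to 65.6% ± 0.30. The liver pyruvate kinase *PKLR* had 4 counts in 1 library and 0 in the rest, and *LDHC* and *PGK2* were listed at 0, so *PKM* and *PGK1* served their steps alone. The sperm form *GAPDHS* had 89 to 111 counts, at most 0.0449% of the *GAPDH* count in any library, and no named pseudogene or copy in the table reached more than that share of its parent among the 10.

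The called genes in each list around the pathway are to be read against the 26.8% higher and 25.8% lower of all tested genes. Of 16 tested transporters of glucose and lactate and their partners, 6 were higher and 3 lower. *SLC16A1*, the monocarboxylate carrier MCT1, rose (0.32 ± 0.035; adjusted p = 4.56e-05), and its chaperone *BSG* fell (-0.52 ± 0.032; adjusted p = 1.24e-06). The glucose transporter *SLC2A1* stood at 0.0011 ± 0.047 (adjusted p = 0.986), and *SLC2A3* rose by 0.24. Past the test and a fold of 1.5 were *SLC2A13* (1.57), which carries myo-inositol, *SLC2A4* (0.81), *SLC16A7* (0.81) and *SLC2A14* (0.74), a near copy of *SLC2A3* whose counts are uncertain. The liver glucose transporter *SLC2A2* was listed at 0.

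Among 11 tested regulators of glycolytic flux and pyruvate entry, 4 were higher and 2 lower. *PFKFB3*, which makes the activator of phosphofructokinase, went from 2743 and 2926 counts in the controls to 1845 and 1766 under the sgUSP22 label (-0.73 ± 0.059; adjusted p = 6.32e-06), and no other regulator passed the test together with a fold of 1.5. Of the 12 tested transcription factors known to act on glycolytic genes, 2 were higher and 5 lower. *HIF1A* stood at 0.041 ± 0.033 (adjusted p = 0.334) and *MYC* at -0.23 ± 0.032 (adjusted p = 0.000215), while *KLF10* (-0.75) and *PPARGC1A* (0.75) passed a fold of 1.5.

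Downstream, a list covered pyruvate dehydrogenase, the pyruvate carrier, the citric acid cycle and the aspartate aminotransferases *GOT1* and *GOT2*. Of its 26 tested genes, 5 were higher and 9 lower. Only *GOT1* (-0.72), on the long arm of chromosome 10, passed a fold of 1.5, so no gene of pyruvate dehydrogenase or of the cycle itself did. The pentose phosphate pathway, which branches off at the product of hexokinase, had 1 of 10 tested genes higher and 5 lower, none past a fold of 1.5. In both lists the share higher lay under the 26.8% of all tested genes, and the share lower lay above the 25.8%. Nothing particular to the lists was tested. Gluconeogenesis had 1 of 5 higher and 3 lower, the higher one being *PC*, pyruvate carboxylase, at 0.81. In the glycogen and hexosamine branches 7 of 15 were higher and 3 lower, and *GFPT2* (1.41) and *GFPT1* (0.68), whose enzymes divert fructose-6-phosphate to hexosamines, passed a fold of 1.5.

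The use of *GAPDH* as an internal control raised the question of how it compared with other reference genes. Of 19 reference genes in common use, with *GAPDH* and *PGK1* among them, 12 were lower and 2 higher past the test, and 5 did not pass it. *GAPDH* stood in the middle of the list, whose median was its own value of -0.23. *ACTB*, β-actin, was lowest (331941 and 333425 counts against 210981 and 205130; -0.76 ± 0.024; adjusted p = 1.93e-08), followed by *GUSB* (-0.60), and these 2 passed a fold of 1.5. *RPS18* (-0.45), *RPL13A* (-0.39), *POLR2A* (-0.36), *RPLP0* (-0.35), *TUBB* (-0.34), *PPIA* (-0.25), *SDHA* (-0.20) and *EEF1A1* (-0.11) were also among the lower genes. *B2M* (0.43) and *IPO8* (0.32) were higher. Those that did not pass included *TBP* (0.20), *PGK1* (0.0098), *YWHAZ* (0.0081) and *HPRT1* (-0.0057), and of these *YWHAZ* had an interval (-0.057 to 0.073) about as narrow as that of *PGK1*. Once trends with GC content and length were removed, *YWHAZ* was lower past the test (-0.19, adjusted p = 0.000465).

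**Figure D4:**
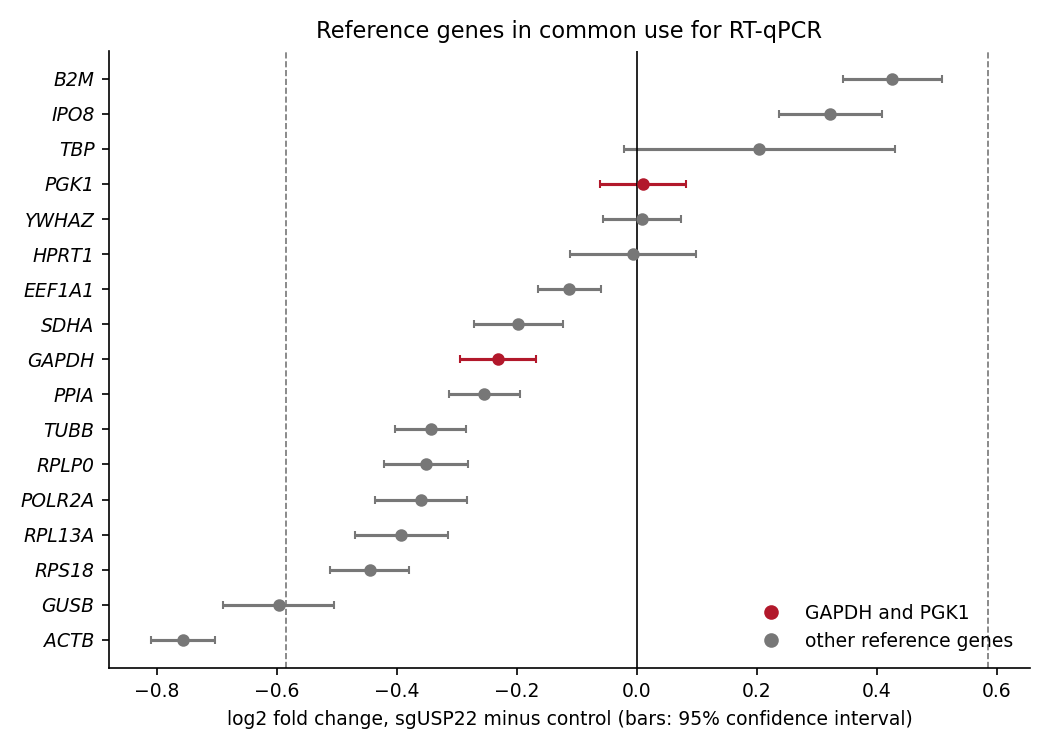
Log2 fold change (sgUSP22 minus control) with 95% confidence interval of 17 of the 19 reference genes, in order, with *GAPDH* and *PGK1* in red and dashed lines at a fold of 1.5. The genes run from *ACTB* at -0.76 to *B2M* at 0.43, with *GAPDH* at -0.23 and *PGK1* at 0.0098.

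A reference that falls raises every ratio taken over it. When the libraries were scaled to their *GAPDH* count, the median log2 fold change over all genes moved up by 0.23. Past the test, 3 of the remaining 9 enzyme genes were then lower and 3 higher, beside 1591 lower and 6779 higher among 15149 genes. *GPI* (-0.23), *PKM* (-0.17) and *ENO1* (-0.14) were still lower, and *PFKP* (-0.11, adjusted p = 0.101), *TPI1* (-0.080, adjusted p = 0.122) and *ALDOA* (-0.061, adjusted p = 0.271) no longer passed. *HK2* (0.46), *PGK1* (0.24) and *LDHA* (0.17) were higher. Relative to *GAPDH*, the order of the genes from *GPI* to *HK2* was the same as before, as a common scale leaves it. When the libraries were scaled to the other 17 reference genes together, the median of all genes moved up by 0.20 and *GAPDH* itself stood at -0.031 (adjusted p = 0.341).

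The 7 genes of the study's RT-qPCR over *GAPDH* were therefore expressed as log2 ratios of counts within each library. *TFRC*, the transferrin receptor, had log2 ratios to *GAPDH* of -3.37 and -3.36 in the control libraries and -1.60 and -1.51 under the sgUSP22 label. The difference of 1.81, or 3.50-fold, compares with 1.58, or 2.98-fold, in the TMM-scaled fit. Over the 17 other references that of *TFRC* ran from 1.15 with *B2M* to 2.33 with *ACTB*, with a median of 1.83, so it was upward with each of them. *SLC9A9* (2.39 against 2.15), *SCARA5* (2.51 against 2.27), *BTG2* (1.44 against 1.21), *MDM2* (1.06 against 0.82) and *FBXW7* (0.84 against 0.62) were likewise larger over *GAPDH* than by TMM, and upward with every reference. The smallest of these differences was 0.19, for *FBXW7* over *B2M* (SD 0.13 between the libraries labelled sgUSP22). All genes but *CDK11B* had been chosen by the study on these same libraries, so their upward direction is no independent evidence. *SLC9A9* rested on only 16 and 20 counts in the controls. *CDK11B* was the exception in direction, at 0.18 over *GAPDH*, -0.047 ± 0.051 by TMM (adjusted p = 0.482), and between -0.47 with *B2M* and 0.71 with *ACTB*. It has the close copy *CDK11A*, so its counts are uncertain.

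**Figure D5:**
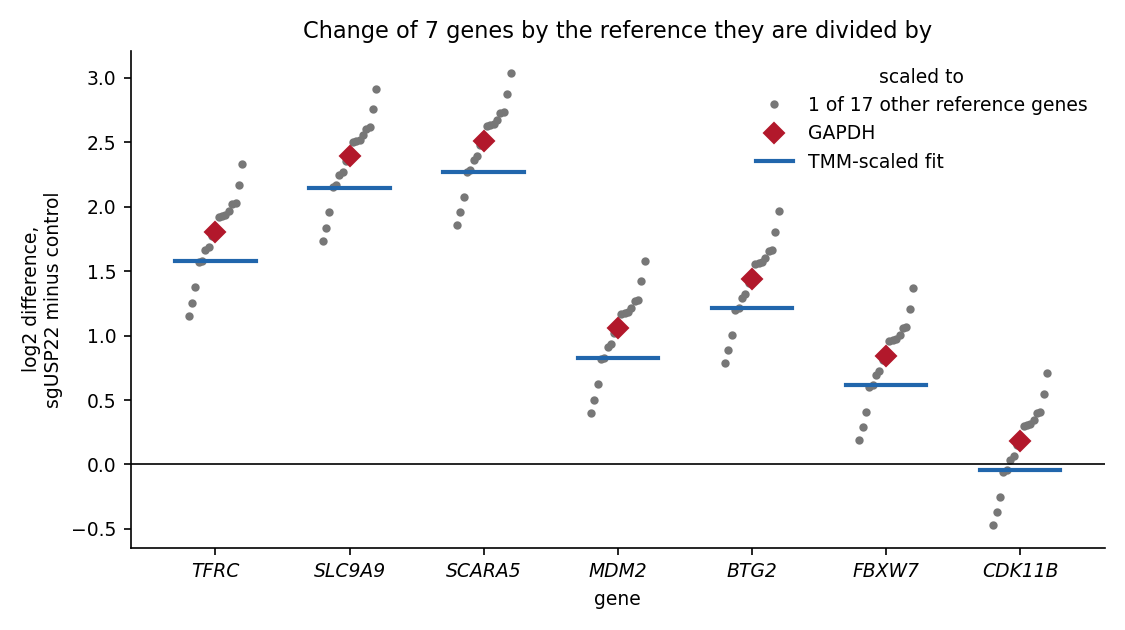
Log2 difference (sgUSP22 minus control) of 7 genes when divided by *GAPDH* (diamonds), by each of 17 other reference genes (dots, sorted) or scaled by TMM (lines). Each *GAPDH* value lies above the TMM value and near the middle of the other references, and only for *CDK11B* do the dots fall on both sides of 0.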

How the data were processed

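RNA from 4 libraries was analysed, 2 per group. According to the submitters' processing notes, the authors used HISAT2 (2.2.1), StringTie (2.2.1) and DESeq2 (1.34.0) with hg38, and they deposited whole read counts per gene, with no normalisation; the annotation and the strand setting are not given in the sources used here. Counting by gene pools isoforms and can split reads between near-identical copies. Counts were tested in R (4.3.3) with edgeR (4.0.16): filterByExpr (minimum count 10), TMM scaling and the quasi-likelihood test, with Benjamini-Hochberg adjustment over 15150 genes, after the code had been tested on simulated data. SE is the absolute log2 fold change over the square root of F. CPM uses TMM library sizes, and TPM uses canonical transcript lengths of GENCODE release 44 (hg38), which held 25763 of the 28278 symbols. Promoters came from RefSeq (GRCh38.p14). At these depths 3 counts equal 0.0463 to 0.0484 CPM. Within a group the libraries differed by more than counting noise (mean chi-square per gene 7.91 and 8.44), so none was counted as a copy of another, which does not show that they came from separate cultures. Genes were named by rule: all 10 enzymes, every tested isozyme of their steps, every reference gene, *USP22*, and up to 4 genes a list past a fold of 1.5 at an average log2 CPM of at least 1. Other list genes (such as *SLC16A1*, *BSG*, *SLC2A1*, *SLC2A3*, *HIF1A* and *MYC*) were named after their values were seen. Some genes of the lists are not reported here. The enzymes and the lists were chosen with earlier results of these data known. Alternatives were DESeq2 (1.42.0), RLE factors, library size alone, scaling to *GAPDH* or to 17 reference genes, leaving the filter out, requiring 50 counts on average, a replicate block, leaving out each library, adding pseudogene counts, removing lowess trends (span 0.3) with GC content and length, and a test against a fold of 1.5.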

Additional observations from a re-analysis of the deposited data

How the results depend on the processing

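For the 10 enzyme genes, 85 of 99 values under settings other than leaving out a library kept their direction and their side of the threshold. Those with pseudogene counts added agreed by construction, as only *TPI1* had named pseudogenes, with 7 to 20 counts a library. Of the 40 values without 1 library, 39 kept both. The exception was *PGK1*, which ranged from -0.037 (without sgUSP22 replicate 1) to 0.042. *GAPDH* ranged from -0.28 to -0.20 when libraries were left out and remained past the threshold. With the replicate block *GAPDH* was at -0.23 and 7 enzyme genes were lower and 1 higher, as without it; the same-numbered libraries deviated together only weakly (r = 0.0819 across genes, 2 pairs), and the numbers were not taken to pair them. Scaled to *GAPDH*, 3 enzyme genes were lower and 3 higher, and over all genes 1591 lower and 6779 higher at the adjusted p (3904 and 4057 with TMM), and 589 and 2673 with the fold of 1.5 (1098 and 1345 with TMM). Scaled to 17 reference genes, 5 enzyme genes were lower and 3 higher, over all genes 1963 and 6630, or 626 and 2432 with the fold, and *GAPDH* was at -0.031. Both scalings move every gene up by construction. The GC and length correction put *GAPDH* at -0.049 and *PGK1* at -0.11. Scaling to *GAPDH* left 0 lower calls past the fold of 1.5 among the regulators, the transcription factors, the reference genes and the list with the citric acid cycle. With TMM these calls were *PFKFB3*, *KLF10*, *ACTB*, *GUSB* and *GOT1*. Of the 7 RT-qPCR genes, 4 passed that fold after the GC and length correction (6 with TMM). With that correction the higher calls among the transcription factors went from 1 to 0 and in the hexosamine branches from 2 to 1. The test against a fold of 1.5 called 428 genes lower and 578 higher. Direction changed, in the order scaled to *GAPDH* and to the reference genes, for *LDHA* (0.17, 0.14), *ENO3* (0.19, 0.16), *HPRT1* (0.23, 0.19), *SDHA* (0.034, 0.0027), *EEF1A1* (0.12, 0.087) and *CDK11B* (0.18, 0.15). It changed with the GC and length correction for *ENO3* (0.14), *YWHAZ* (-0.19, then past the test) and *CDK11B* (0.064), and by library size alone for *ENO3* (0.013), *HPRT1* (0.047) and *CDK11B* (0.0056). *PFKM* was at -0.00010 by DESeq2, -9.8e-05 with RLE factors and -0.00088 with a mean of at least 50 counts. Without 1 library, *PFKM* ranged from -0.0090 to 0.0037, *ENO3* from -0.083 to 0.0056, *HPRT1* from -0.057 to 0.047 and *YWHAZ* from -0.015 to 0.018. None of these genes had passed the test under TMM except *SDHA* and *EEF1A1*, and the cause of each change was not tested.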
